A study of Homo sapiens with 8 samples.

Results

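The small Cajal body RNAs (scaRNAs) are guide RNAs that direct chemical modification of the spliceosomal small nuclear RNAs (snRNAs). They were taken here by name, as every entry of the deposited count table that starts with SCARNA, which gave 28 of 2962 entries. The libraries came from HEK293, an established line of human embryonic kidney origin. One group of 4 libraries received 50 nM of a synthetic copy of a 3′ tRNA-derived RNA (tDR) of tRNA-Asp-GTC, and a second group of 4 received 50 nM of a scramble mimic. Both mimics were delivered with the lipid reagent Lipofectamine RNAiMax, and cells of both groups were harvested at 48 h. RNA was isolated with TRIzol and copied into libraries by Ordered Two-Template Relay (OTTR-seq), a reverse-transcription method for small RNA. The design asks what the tDR mimic changed relative to the scramble mimic in 1 cell line, and it has no untransfected group. The labels number the replicates 1 to 4 and do not tell whether each was its own culture. Every p-value therefore rests on variation among libraries that could be technical only.

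Libraries held 6910186 to 8007025 counts in the tDR group and 4016295 to 10246336 counts in the scramble group. An entry named scr2, left out of all totals, had 8.21 to 32.7 CPM (counts scaled to library size) in tDR libraries and 3697 to 5067 CPM in scramble libraries. This entry thus separated the libraries as they are labelled. That it is the scramble mimic is inferred from its name, and the tDR mimic itself was not checked. All 8 microRNAs listed for HEK293 were present, with a summed level of 1915 to 3419 CPM in tDR libraries and 2500 to 4739 CPM in scramble libraries. The largest member was hsa-miR-19b-3p, at 932 to 1675 CPM in tDR libraries and 987 to 2244 CPM in scramble libraries. Of 10 microRNAs listed for other cell types, 5 had an entry. Their summed level was 38.1 to 69.8 CPM in tDR libraries and 37.97 to 63.5 CPM in scramble libraries, most of it the neural hsa-miR-9-5p. The listed HEK293 microRNAs hsa-miR-196a-5p and hsa-miR-10a-5p were below hsa-miR-9-5p in each of the 8 libraries. The sums therefore do not identify the line by themselves.

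Cajal bodies are nuclear compartments where newly imported snRNAs are modified before they join the spliceosome. Guides with C and D boxes direct methylation of a ribose by fibrillarin, guides with H and ACA boxes direct conversion of a uridine to pseudouridine by dyskerin, and a few scaRNAs carry both kinds of domain. H/ACA scaRNAs hold a short CAB box that is bound by WRAP53 and keeps them in the Cajal body. Most human scaRNAs are cut from the introns of other genes. Of the 23 that had a GENCODE 29 entry of the same name, 18 lay in an intron of a protein-coding gene on the same strand.

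The scaRNA with the highest level, SCARNA16, directs pseudouridylation of U1, the snRNA that recognises the 5′ splice site. It lies at chr17:77089307-77089493 on the plus strand of hg38, in an intron of SEC14L1 and across an exon of the host gene SNHG20. Its sequence is shown because a second entry of the table, the microRNA hsa-miR-6516-3p, lies inside it. The capitals mark that microRNA, bases 163 to 184 of 187, counted from the 5′ end.
SCARNA16: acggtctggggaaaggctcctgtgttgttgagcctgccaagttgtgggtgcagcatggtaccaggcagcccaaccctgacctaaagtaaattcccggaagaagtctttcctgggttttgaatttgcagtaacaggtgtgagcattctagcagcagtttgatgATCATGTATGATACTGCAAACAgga

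Another 5 H/ACA scaRNAs are shown from GENCODE 29 transcripts because the ranking or the comparison below turns on them. Capitals mark ACA where it stands 3 bases before the 3′ end, the place that defines the box, and TGAG, letters of the CAB box searched on the transcribed strand. SCARNA15 (chr15:82755945-82756071, plus strand) was second in level per length. SCARNA18 (chr5:83064204-83064337, minus strand) and SCARNA18B (chr1:193057281-193057415, minus strand) are copies with 119 of 135 aligned positions identical (88.1%). SCARNA8 (chr9:19063656-19063786, minus strand) and SCARNA23 (chrX:24744441-24744570, plus strand) were among the guides with the lowest p-values.
SCARNA15: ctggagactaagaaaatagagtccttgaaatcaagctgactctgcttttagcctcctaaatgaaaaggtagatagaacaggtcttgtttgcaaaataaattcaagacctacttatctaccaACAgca
SCARNA18: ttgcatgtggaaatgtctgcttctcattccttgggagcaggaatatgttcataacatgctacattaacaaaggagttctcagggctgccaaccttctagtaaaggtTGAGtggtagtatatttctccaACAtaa
SCARNA18B: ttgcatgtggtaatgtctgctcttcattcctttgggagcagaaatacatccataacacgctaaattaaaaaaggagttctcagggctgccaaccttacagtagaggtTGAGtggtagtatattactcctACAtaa
SCARNA8: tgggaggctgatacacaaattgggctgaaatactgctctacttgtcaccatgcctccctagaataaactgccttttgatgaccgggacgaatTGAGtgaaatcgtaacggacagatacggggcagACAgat
SCARNA23: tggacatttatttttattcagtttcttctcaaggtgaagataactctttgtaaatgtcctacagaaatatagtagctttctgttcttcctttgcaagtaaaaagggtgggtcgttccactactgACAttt

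Of 14 H/ACA scaRNA sequences of 120 to 190 bases, 11 (78.6%) had ACA at that place, and so had 110 of 139 SNORA sequences of the same length range (79.1%), which are H/ACA guides of the nucleolus. TGAG was present anywhere in 7 of the 14 (50%) and in 58 of the 139 (41.7%). These 4 letters alone did not set scaRNAs apart from nucleolar guides in this count.

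For guides with C and D boxes, the guide stretch lies just upstream of a D box, whose letters are CTGA. The longest run of Watson-Crick pairing to an snRNA that ended within 3 bases of a CTGA was searched, and the windows below show the paired letters in capitals. SCARNA7 pairs over 8 bases with bases 67 to 74 of U1 (RNU1-1), and SCARNA9 pairs over 10 bases with bases 27 to 36 of U2 (RNU2-1), the snRNA that binds the branch point. SCARNA6 pairs over 8 bases with bases 38 to 45 of U5 (RNU5A-1), the snRNA that holds the exon ends.
SCARNA7: atattGGAGTGCAtctgaggc
RNU1-1: catTGCACTCCgga
SCARNA9: ggtttCTACACTTGAcctgagct
RNU2-1: agaTCAAGTGTAGtat
SCARNA6: gaatgGTAAAAGGtctgagtc
RNU5A-1: tcgCCTTTTACtaa
SCARNA5, the neighbour of SCARNA6 in the introns of ATG16L1, holds the same 8 paired letters. Its longest run in the search was another one, 11 bases with bases 61 to 71 of U4 (RNU4-2), shown next.
SCARNA5: atctcAAGTTTTCAATctgagac
RNU4-2: ctaATTGAAAACTTttc
The same search also gave runs to snRNAs that are not the named targets. SCARNA7 paired over 7 bases with U2 (RNU2-1). SCARNA2, a guide of U2, had a run of 6 bases with U5 (RNU5A-1). SCARNA17, a guide of U4 and U12, had runs of 6 bases with U1 (RNU1-1) and U2 (RNU2-1). SCARNA12, a guide of U5, had a run of 6 bases with U12 (RNU12). A match of letters is a description and not a test of guiding.

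SCARNA16 had the most counts of the 28, and nearly all of that number recurred under the microRNA marked in its sequence above. SCARNA16 had 207, 209, 247 and 209 counts in tDR libraries, against 256, 305, 153 and 329 counts in scramble libraries. The entry hsa-miR-6516-3p had 198, 196, 238 and 207 counts in tDR libraries, against 245, 300, 147 and 315 counts in scramble libraries. The microRNA count was 93.8% to 99.0% of the SCARNA16 count in tDR libraries and 95.7% to 98.4% in scramble libraries. The 2 entries lay within 10% or 3 counts of each other in 8 of 8 libraries. The microRNA is the last stretch of SCARNA16 before its 3 final bases, and whether both entries counted the same reads was not tested. The partner arm hsa-miR-6516-5p, bases 122 to 143 of SCARNA16, had 19 to 40 counts in tDR libraries and 19 to 35 counts in scramble libraries, which was 9.18% to 16.2% and 8.51% to 12.9% of SCARNA16. The count table does not give read lengths, so a count may stand for a whole scaRNA or for a fragment of it.

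**Figure D1:**
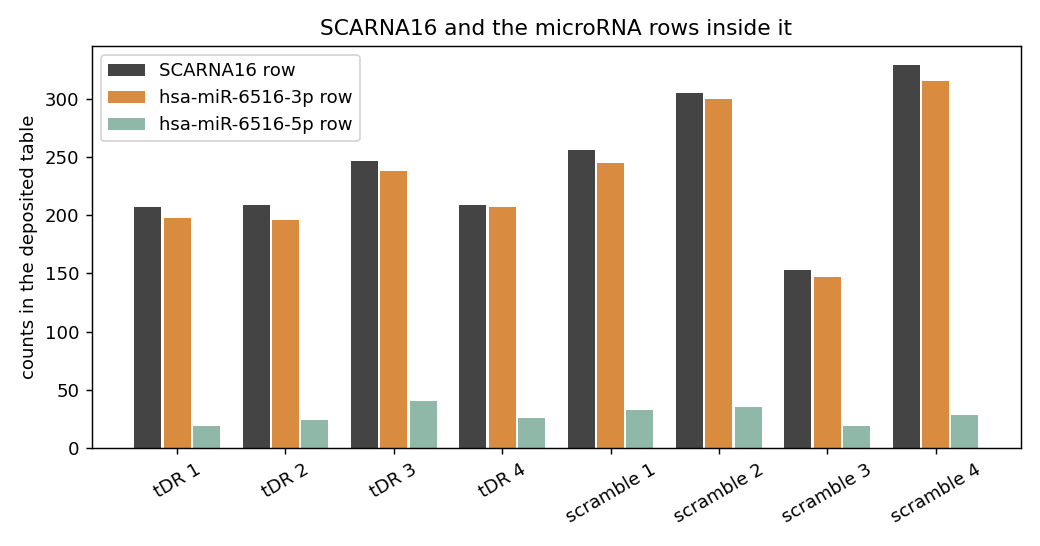
Counts of SCARNA16 and of the microRNA entries that lie inside it, in each tDR and scramble library. The counts of hsa-miR-6516-3p follow those of SCARNA16 in every library, at 93.8% to 99.0% of them.

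Together the scaRNAs were a small part of each library. They held 1518, 1240, 1330 and 1305 counts in tDR libraries, and 1324, 1960, 862 and 2146 counts in scramble libraries. The share was 0.022%, 0.0163%, 0.0166% and 0.0183% of counts in tDR libraries, and 0.0161%, 0.0192%, 0.0215% and 0.0209% in scramble libraries. The exact 95% Clopper-Pearson interval ran from 0.0209% to 0.0231% for tDR library 1 and from 0.0152% to 0.017% for scramble library 1, and these intervals cover counting error only. The shares of the 2 groups overlapped. A count of 0 allowed a level of up to 0.261 to 0.674 CPM, depending on the library.

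Levels were compared between genes as TMM-scaled CPM per 100 bases of RefSeq gene length, where TMM is a scaling that assumes most entries do not change. SCARNA16 had 15.1, 17.4, 18.4 and 15.6 CPM per 100 bases in tDR libraries, against 17.4, 15.5, 18.4 and 15.3 in scramble libraries. It ranked first in 8 of 8 libraries, at 1.95 times the level of SCARNA15. SCARNA15, a guide of U2, had 7.94, 8.96, 7.78 and 10.2 CPM per 100 bases in tDR libraries, against 6.0, 9.63, 9.73 and 7.89 in scramble libraries. It ranked second in every library on this scale. SCARNA18, a guide of U1, averaged 6.83 ± 1.85 in tDR libraries and 5.79 ± 1.01 in scramble libraries (CPM per 100 bases, SD, n = 4 each) and took ranks 3 to 9.

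Below these came SCARNA9L, a copy of the U2 guide SCARNA9, at 6.10 ± 0.994 in tDR libraries and 6.11 ± 0.965 in scramble libraries (CPM per 100 bases, SD, n = 4 each). SCARNA9 itself had a range of 4.77 to 5.70 CPM per 100 bases in tDR libraries and 3.71 to 5.34 in scramble libraries. SCARNA12, a guide of U5 with both kinds of domain, ranged from 4.60 to 5.10 in tDR libraries and from 4.14 to 5.74 in scramble libraries. SCARNA4, a guide of U2, ranged from 3.34 to 4.97 in tDR libraries and from 3.66 to 5.61 in scramble libraries on this scale. SCARNA13, which guides U2 and U5, ranged from 3.00 to 5.38 in tDR libraries and from 3.43 to 4.24 in scramble libraries. Of the 27 pairs of neighbours in the order, 3 kept their order in all 8 libraries, namely SCARNA16 over SCARNA15, SCARNA15 over SCARNA18, and SCARNA9L over SCARNA9. The other neighbours were not separated beyond the spread between libraries. The order below SCARNA16 depends on the division by length. By mean CPM alone SCARNA16 stayed 1st, SCARNA9L was 2nd, SCARNA9 3rd, SCARNA12 5th and SCARNA13 6th. SCARNA15 was then 7th, SCARNA18 9th and SCARNA4 11th.

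The lowest levels belonged to guides of the minor spliceosome. SCARNA17, a guide of U4 and U12, averaged 0.110 CPM per 100 bases over the 8 libraries, and SCARNA21 and SCARNA20, guides of U12, averaged 0.245 and 0.265. SCARNA17 had 5, 2, 4 and 6 counts in tDR libraries and 1, 4, 2 and 4 counts in scramble libraries. SCARNA17 was 28th with its RefSeq length of 421 bases and 26th with the GENCODE length of 144. The level of SCARNA16 was 152 times that of SCARNA17 with the RefSeq length and 51.9 times with the GENCODE length, and both values rest on these few SCARNA17 counts. SCARNA20 had 1, 3, 3 and 6 counts in tDR libraries and 0, 1, 2 and 4 counts in scramble libraries. SCARNA21 had 4, 0, 4 and 1 counts in tDR libraries and 1, 2, 2 and 8 counts in scramble libraries. At these counts an ordering among the 3 cannot be read.

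**Figure D2:**
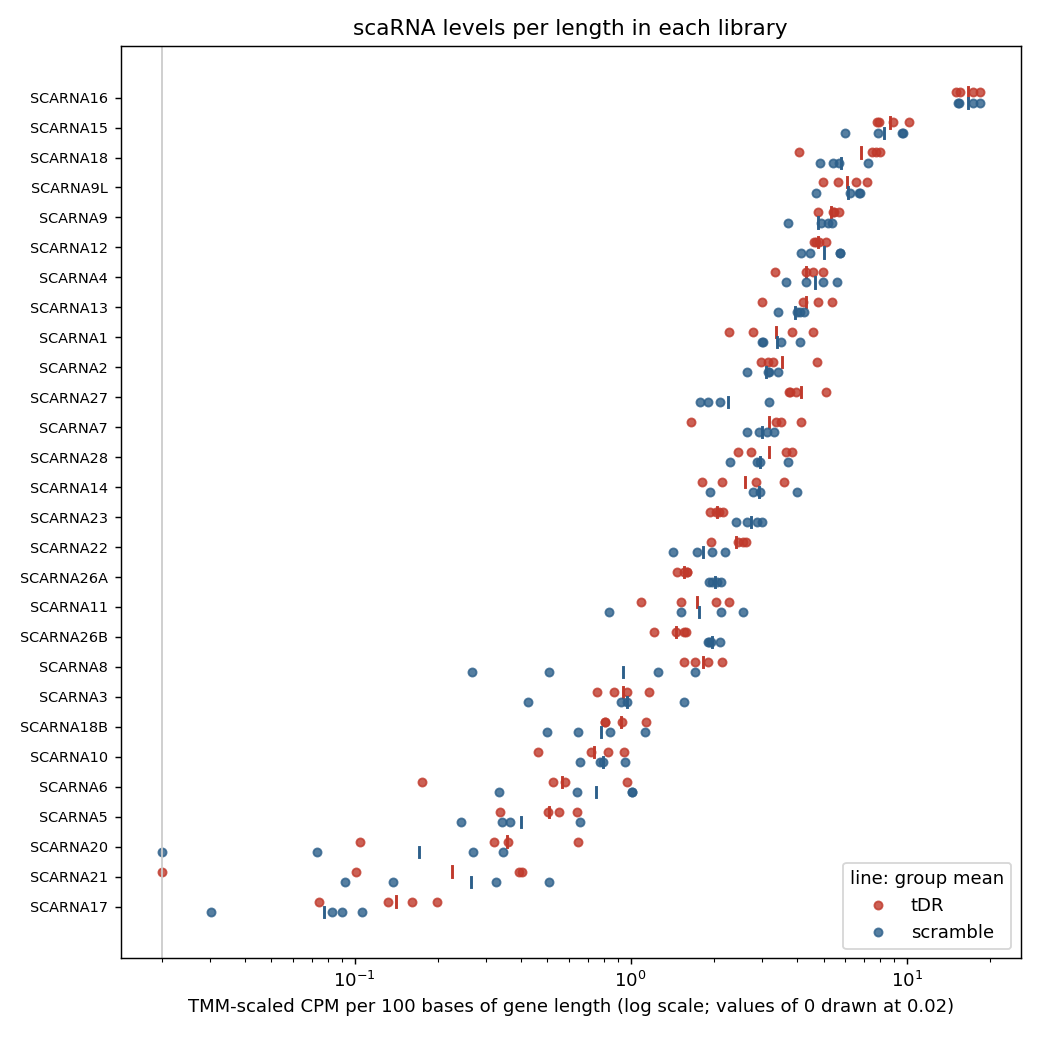
TMM-scaled CPM per 100 bases for each of the 28 scaRNAs on a log scale, 1 point per library with tDR above scramble and a line at each group mean. SCARNA16 lies above every other scaRNA in all 8 libraries, and SCARNA17 has the lowest mean.

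Copies of a guide differed in level. SCARNA9 had 0.766 to 0.976 times the counts of SCARNA9L in tDR libraries and 0.734 to 0.866 times in scramble libraries, and it exceeded SCARNA9L in 0 of 8 libraries. The stretches of SCARNA9L annotated as RF00494 and RF00493 were 97.5% and 92.8% identical to SCARNA9, so reads may be split between the copies in a way the counting decided. SCARNA18 had 5 to 9.5 times the counts of SCARNA18B in tDR libraries and 5 to 9.67 times in scramble libraries. SCARNA18B itself had 8, 7, 9 and 11 counts in tDR libraries and 12, 12, 3 and 10 counts in scramble libraries. SCARNA26A and SCARNA26B had equal counts in 6 of 8 libraries, which makes their values uncertain as separate genes.

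None of the 24 scaRNAs with enough counts to test differed between tDR and scramble libraries at an adjusted p below 0.05 in edgeR's quasi-likelihood test. Of all 1761 entries tested, 6.7% were called in either direction, 5.34% as higher and 1.36% as lower in tDR libraries. At an unadjusted p below 0.05 there were 2 scaRNAs, SCARNA27 and SCARNA8, where 21.5% of all entries had such a p. DESeq2's Wald test also called 0 of the 24. The log2 fold changes of tDR over scramble ran from -0.43 to 1.13, with a median of 0.03 beside 0.02 over all tested entries. They were above 0 for 13 scaRNAs and below 0 for 11, and 52.2% of all tested entries were above 0. Standard errors ran from 0.16 to 0.48. The 95% interval lay inside a 2-fold change either way for 17 of the 24 and inside a 1.5-fold change for 7. The intervals of the remaining 7 reached beyond 2-fold. In bulk RNA, fewer cells that hold an RNA and less of it per cell cannot be told apart.

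**Figure D3:**
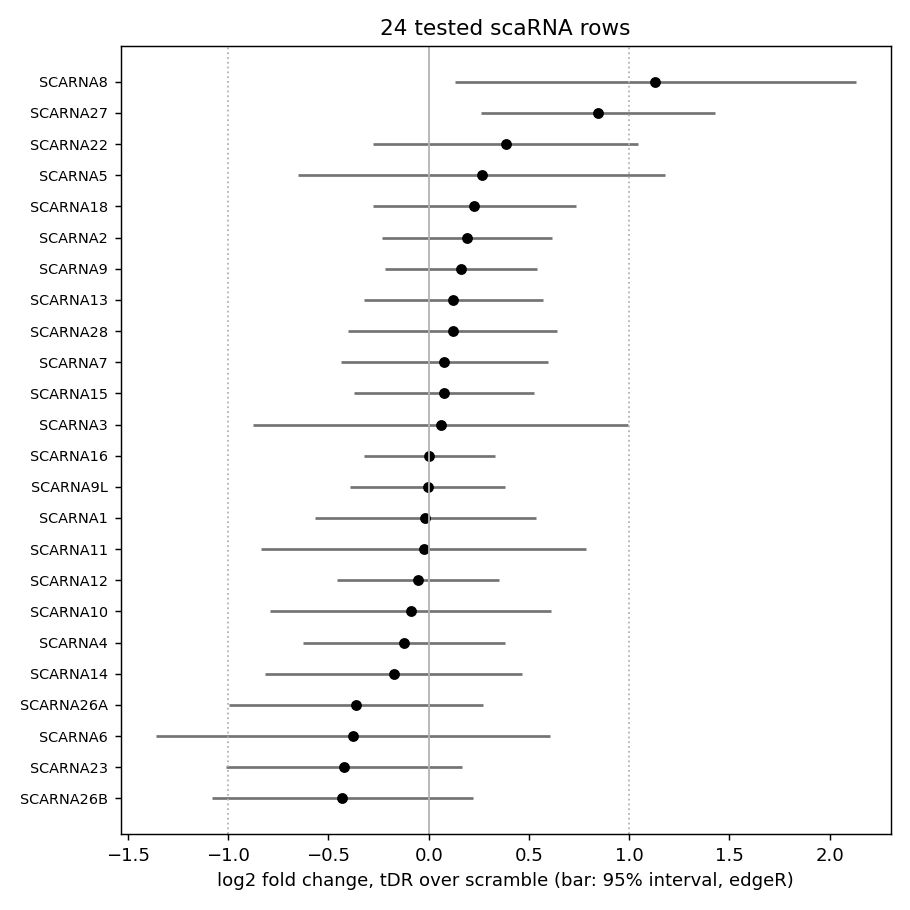
The log2 fold change of tDR over scramble for the 24 tested scaRNAs, with 95% intervals from edgeR and dotted lines at a 2-fold change. SCARNA8 and SCARNA27 have intervals that exclude 0 before adjustment, and 17 intervals lie between the dotted lines.

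SCARNA27, encoded within an intron of EEF1E1 (chr6:8086408-8086533), had the lowest p-value. It had 6.41, 4.99, 4.73 and 4.75 CPM in tDR libraries, against 2.41, 2.65, 2.25 and 4.01 CPM in scramble libraries. Every tDR library was above every scramble library, with scramble library 4 the nearest. Scaled by total counts alone the groups overlapped, at 4.22 to 6.80 CPM in tDR libraries and 2.31 to 4.49 CPM in scramble libraries. The mean was 5.22 ± 0.80 CPM in tDR libraries and 2.83 ± 0.802 CPM in scramble libraries (SD, n = 4 each). The log2 fold change was 0.84 (SE 0.28, 95% interval 0.26 to 1.43), which did not pass the test (edgeR adjusted p = 0.0786). The value rests on 32 to 47 counts in tDR libraries and 10 to 46 counts in scramble libraries. Without scramble library 4, the one nearest to the tDR libraries, it was 1.06 (edgeR adjusted p = 0.0428). With any other library left out, the edgeR adjusted p was 0.0964 to 0.194. It ranked 9th in mean level per length in tDR libraries and 15th in scramble libraries.

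SCARNA8, the guide of U2 whose sequence is given above, had the largest fold change of the 24. It had 2.04, 2.81, 2.50 and 2.23 CPM in tDR libraries, against 1.65, 0.66, 2.25 and 0.35 CPM in scramble libraries. The scramble libraries varied widely and overlapped the tDR libraries. The log2 fold change was 1.13 (SE 0.48, 95% interval 0.13 to 2.13, edgeR adjusted p = 0.173), on 15 to 18 counts in tDR libraries and 4 to 13 in scramble libraries.

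With TMM scaling, groups that did not overlap were found for 4 scaRNAs, 1 higher and 3 lower in tDR libraries. Over all tested entries, 7.78% did not overlap and were higher and 5.51% did not overlap and were lower. The higher one was SCARNA27. The lower ones were SCARNA23, SCARNA26A and SCARNA26B, and none of them passed the test. SCARNA23, an H/ACA guide in an intron of POLA1, had 2.73, 2.81, 2.64 and 2.51 CPM in tDR libraries, against 3.43, 3.89, 3.14 and 3.74 CPM in scramble libraries. Its log2 fold change was -0.42 (SE 0.28, edgeR adjusted p = 0.415). SCARNA26A had 2.32, 2.18, 2.37 and 2.37 CPM in tDR libraries, against 2.92, 2.84, 3.14 and 3.05 CPM in scramble libraries. Its log2 fold change was -0.36 (edgeR adjusted p = 0.530). SCARNA26B had 2.32, 2.18, 2.37 and 1.82 CPM in tDR libraries, against 2.92, 2.84, 3.14 and 2.87 CPM in scramble libraries (log2 fold change -0.43, SE 0.31, edgeR adjusted p = 0.459). With counts so nearly those of SCARNA26A, it is not a second observation.

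**Figure D4:**
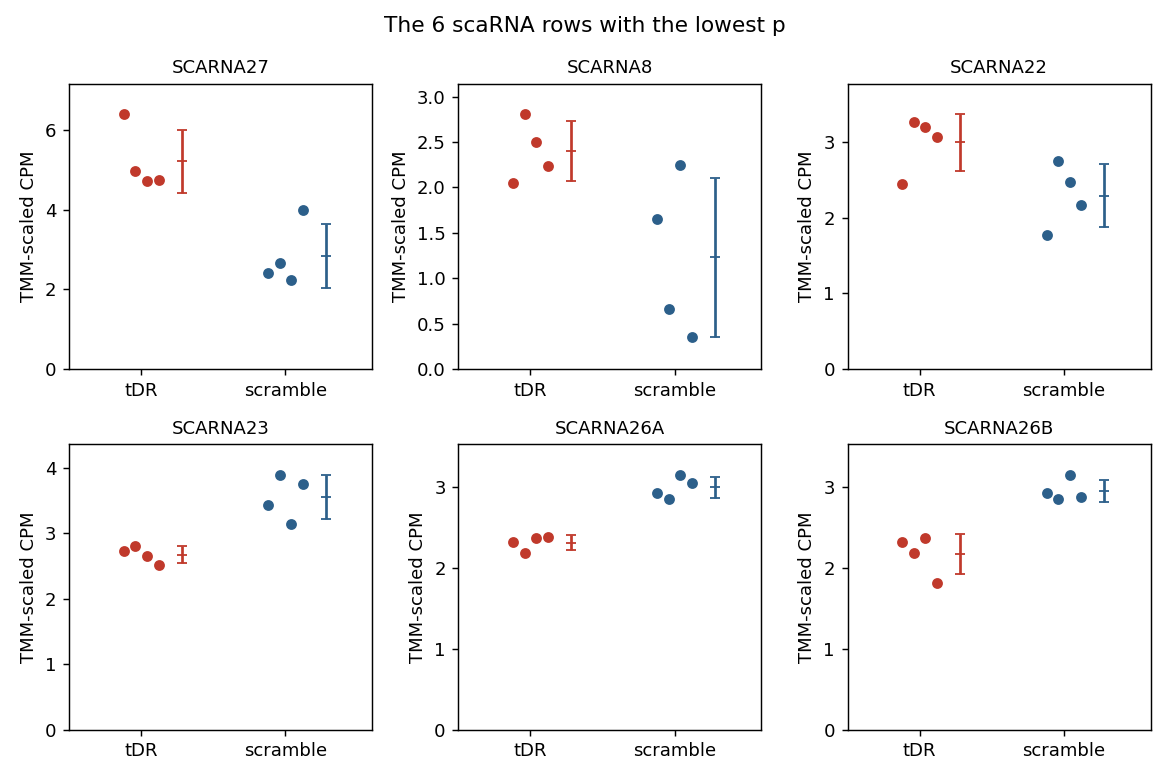
TMM-scaled CPM of the 6 scaRNAs with the lowest p-values in each library, with mean and SD beside the points. On this scale SCARNA27 is higher and SCARNA23, SCARNA26A and SCARNA26B are lower in every tDR library than in every scramble library, while none passed the adjusted test.

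The other scaRNAs had log2 fold changes between -0.38 and 0.38, with an edgeR adjusted p of at least 0.4 for 22 of the 24. SCARNA22, an H/ACA guide in an intron of NSD2, had 2.45, 3.27, 3.20 and 3.07 CPM in tDR libraries, against 1.78, 2.75, 2.47 and 2.18 CPM in scramble libraries (log2 fold change 0.38, edgeR adjusted p = 0.524). SCARNA6 stood at the other end, with 2.59, 0.47, 1.39 and 1.54 CPM in tDR libraries and 0.89, 1.71, 2.70 and 2.70 CPM in scramble libraries (log2 fold change -0.38, SE 0.47, edgeR adjusted p = 0.739). The groups of both overlapped. SCARNA2, a guide of U2, had 19.9, 12.5, 13.8 and 13.3 CPM in tDR libraries, against 11.05, 13.4, 13.3 and 14.4 CPM in scramble libraries. Its log2 fold change was 0.19 (edgeR adjusted p = 0.673), and tDR library 1 alone stood above all the others. SCARNA18 had 10.4, 5.46, 10.0 and 10.8 CPM in tDR libraries, against 7.62, 9.67, 6.51 and 7.23 CPM in scramble libraries (log2 fold change 0.23, SE 0.24, edgeR adjusted p = 0.673). In it tDR library 2 lay below every scramble library and the other 3 tDR libraries lay above them all.

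The remaining guides of high level were close to 0. SCARNA9 averaged 18.8 ± 1.40 CPM in tDR libraries and 16.9 ± 2.62 CPM in scramble libraries (SD, n = 4 each), or 0.16 on the log2 scale (edgeR adjusted p = 0.698). Its copy SCARNA9L had 25.1, 19.6, 17.3 and 22.9 CPM in tDR libraries, against 16.4, 23.3, 21.8 and 23.6 CPM in scramble libraries, with a log2 fold change of -0.0054 (edgeR adjusted p = 0.992). Both copies overlapped between the groups. The log2 fold changes of SCARNA15, SCARNA12, SCARNA13 and SCARNA4 were 0.08, -0.05, 0.12 and -0.12, with edgeR adjusted p-values of 0.891, 0.920, 0.824 and 0.845. For the guide of highest level, SCARNA16, the log2 fold change was 0.0033 (SE 0.16, 95% interval -0.32 to 0.33, edgeR adjusted p = 0.994). The microRNA inside it gave -0.00092 (SE 0.16, edgeR adjusted p = 0.998).

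By kind of guide, no class held a called member. Among the 5 tested C/D guides, 4 log2 fold changes were above 0 and the median was 0.12. The summed level of all 6 C/D guides, SCARNA17 included, was 72.1 ± 8.31 CPM in tDR libraries and 67.1 ± 7.89 CPM in scramble libraries (SD, n = 4 each). Among the 12 tested H/ACA guides 7 were above 0, and the median was 0.03. The sum over all 15 H/ACA guides, untested ones included, was 91.8 ± 2.46 CPM in tDR libraries and 88.5 ± 3.63 CPM in scramble libraries. The 4 guides with both domains had a median of -0.07 and a sum of 18.3 ± 1.25 CPM in tDR libraries and 19.3 ± 2.30 CPM in scramble libraries. The groups overlapped for every class.

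By target, the 3 guides of U1 (SCARNA7, SCARNA16 and SCARNA18) had log2 fold changes of 0.08, 0.0033 and 0.23, with a sum of 50.7 ± 4.2 CPM in tDR libraries and 48.8 ± 2.00 CPM in scramble libraries (SD, n = 4 each). SCARNA7, which pairs with U1 as shown above, had 11.6, 13.7, 11.1 and 5.45 CPM in tDR libraries, against 10.3, 8.72, 9.66 and 10.9 CPM in scramble libraries. In this guide tDR library 4 was the lowest of all 8 libraries. The 7 guides of U2 were SCARNA1, SCARNA2, SCARNA4, SCARNA8, SCARNA9, SCARNA13 and SCARNA15. These had 5 values above 0, a median of 0.12 and a sum of 70.2 ± 6.73 CPM in tDR libraries and 64.2 ± 4.95 CPM in scramble libraries. The copies SCARNA9L (log2 fold change -0.0054) and SCARNA18B (not tested) were left out of the guides by target. The 6 guides of U5 had 2 above 0, a median of -0.04 and a sum of 32.6 ± 2.91 CPM in tDR libraries and 32.6 ± 1.24 CPM in scramble libraries. The 3 guides of U12, SCARNA17, SCARNA20 and SCARNA21, did not have enough counts to test. All of these sums overlapped between the groups.

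The totals of the target snRNAs U1, U2 and U5 were above the summed scaRNA level in every library, and the U4 total was below it. With TMM scaling U1 was the 1 of these 4 whose totals did not overlap between the groups. Summed over its 88 entries, U1 had 13375, 17311, 13235 and 13974 CPM in tDR libraries, against 10162, 9771, 10183 and 10667 CPM in scramble libraries. With this scaling all tDR libraries were above all scramble libraries. The total was 1.42-fold higher in tDR libraries (p = 0.0286 by a two-sided exact permutation, the smallest that 70 arrangements allow), with an adjusted p of 0.114 over the 4 totals. A total that differs alone cannot reach a lower adjusted p in this design, so the adjusted value says nothing for or against a difference. Scaled by total counts alone, U1 ranged from 11878 to 14642 CPM in tDR libraries and from 9715 to 11954 CPM in scramble libraries, so that the groups overlapped (p = 0.0571 by exact permutation). The totals of U2, over 61 entries, were 119608 ± 7848 CPM in tDR libraries and 123835 ± 3917 CPM in scramble libraries (SD, n = 4 each; p = 0.4 by exact permutation). The U4 total, over 33 entries, was 115 ± 24.6 CPM in tDR libraries and 113 ± 4.97 CPM in scramble libraries (SD, n = 4 each; p = 1 by exact permutation). The U5 total, over 17 entries, was 809 ± 114 CPM in tDR libraries and 746 ± 127 CPM in scramble libraries (SD, n = 4 each; p = 0.514 by exact permutation). The groups overlapped for U2, U4 and U5. Genomic copies of an snRNA share sequence, so a sum over entries may count the same reads several times. The most abundant U1 entry, RNU1-4, held 7.38% of the U1 sum.

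Set beside single genes of U1, U2 and U5 per length, even SCARNA16, the guide of highest level, was far lower in the libraries. How evenly the library method captured these different RNAs was not tested, so the ratios below do not give amounts in the cell. RNU1-1 was 38.1 times SCARNA16 in tDR libraries and 28.7 times in scramble libraries (level in CPM per 100 bases). RNU2-1 was 308 times SCARNA16 in tDR libraries and 322 times in scramble libraries on the same scale. RNU5D-1 was 21.9 times in tDR libraries and 21.8 times in scramble libraries. RNU4-2 was only 1.28 times SCARNA16 in tDR libraries and 1.36 times in scramble libraries. RNU1-1 averaged 1033 ± 131 CPM in tDR libraries and 779 ± 33.6 CPM in scramble libraries (SD, n = 4 each), which is 0.41 on the log2 scale (SE 0.14, edgeR adjusted p = 0.0996). The log2 fold changes of RNU2-1, RNU4-2 and RNU5D-1 were -0.06, -0.09 and 0.0035, with edgeR adjusted p-values of 0.833, 0.823 and 0.995. RNU11 and RNU12, snRNAs of the minor spliceosome, had log2 fold changes of 0.11 and -0.03 (edgeR adjusted p = 0.811 and 0.939).

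The summed scaRNA level was 207, 193, 185 and 182 CPM in tDR libraries, against 168, 186, 194 and 187 CPM in scramble libraries. The mean was 192 ± 11.1 CPM in tDR libraries and 184 ± 10.9 CPM in scramble libraries (SD, n = 4 each), and the groups overlapped. Per 1000 U1 counts there were 15.5, 11.2, 13.98 and 13.0 scaRNA counts in tDR libraries, against 16.5, 19.0, 19.0 and 17.5 in scramble libraries. The groups did not overlap, and the tDR mean was 0.744 times the scramble mean. The U1 total in the denominator had a higher TMM-scaled mean in tDR libraries, as given above, and the scaRNA sum in the numerator overlapped. With RNU1-4 alone as denominator the ratio was 188 ± 22.7 in tDR libraries and 236 ± 17.4 in scramble libraries, again with no overlap. Without SCARNA16, whose counts recur under a microRNA, it was 11.2 ± 1.68 per 1000 U1 counts in tDR libraries and 15.0 ± 1.19 in scramble libraries, and the groups touched (tDR library 1 at 13.36, scramble library 1 at 13.35). When entries of 1 family with nearly equal counts were taken once, the ratio to U1 was larger. It was then 33.4 ± 4.70 in tDR libraries and 46.4 ± 3.05 in scramble libraries, with no overlap.

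Relative to the other snRNAs the groups overlapped. There were 1.61 ± 0.117 scaRNA counts per 1000 U2 counts in tDR libraries and 1.49 ± 0.132 in scramble libraries (SD, n = 4 each). With entries of nearly equal counts taken once, there were 14.5 ± 1.14 in tDR libraries and 13.8 ± 1.01 in scramble libraries. The size of this ratio therefore depends on how copies are counted, and the groups overlapped either way. Per 1000 U4 counts there were 1713 ± 310 in tDR libraries and 1627 ± 82.5 in scramble libraries, and per 1000 U5 counts 239 ± 19.8 in tDR libraries and 250 ± 31.9 in scramble libraries. These ratios get no test, since they are scores over the chosen members. Of the guides of U1, SCARNA16 had 1.88 to 2.60 counts per 1000 U1 counts in tDR libraries and 2.69 to 3.37 in scramble libraries. SCARNA7 had 0.390 to 0.866 in tDR libraries and 0.893 to 1.02 in scramble libraries. The CPM of SCARNA16 and SCARNA7 themselves overlapped between the groups, with log2 fold changes of 0.0033 and 0.08. The U1 total that divides them had the higher TMM-scaled mean in tDR libraries. SCARNA18 overlapped, with 0.315 to 0.774 in tDR libraries and 0.640 to 0.990 in scramble libraries.

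**Figure D5:**
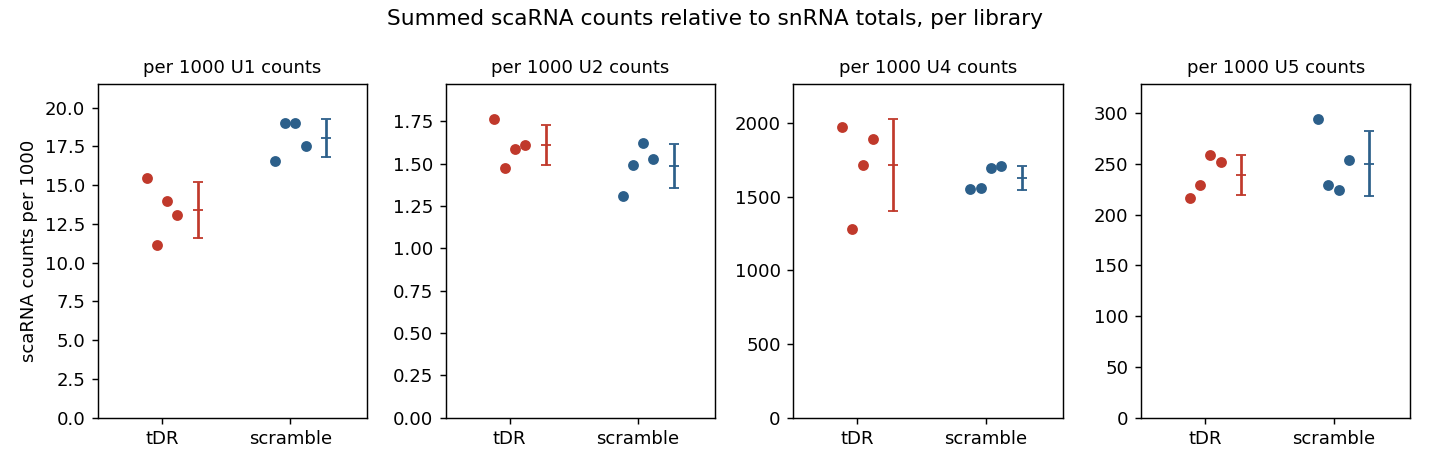
scaRNA counts per 1000 counts of U1, U2, U4 and U5 in each library, with mean and SD beside the points and tDR left of scramble. The ratio to U1 is lower in all tDR libraries, at 11.2 to 15.5, than in all scramble libraries, at 16.5 to 19.0, and the other 3 ratios overlap.

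Other small nuclear and guide RNAs were counted in the same edgeR fit. Over all 1761 tested entries, 5.34% were called higher and 1.36% lower in tDR libraries. Of 59 tested U1 entries, 22 were higher and 0 lower in tDR libraries, and of 51 U2 entries 11 were higher and 0 lower. The median log2 fold change was 0.47 for U1 entries and 0.11 for U2 entries. The summed U2 total had a log2 ratio of -0.05, and RNU2-1 had -0.06. Entries of 1 family may share reads, so calls within a family are not separate observations. Of 10 U5 entries 1 was higher, and of 18 U4 entries 0 were called. Of 141 U6 entries 2 were higher and 5 lower, with a median log2 fold change of -0.21. Of 6 U6atac entries, copies of an snRNA of the minor spliceosome, 2 were lower, with a median of -0.65, and of 6 U4atac entries 0 were called. The lower calls depend on the scaling: with TMM on microRNA entries alone, which moved the median of all entries to 0.36, 1 of 1761 entries was called lower. Of 3 U7 entries, the snRNA of histone mRNA processing, 0 were called. Of the nucleolar guides, 0 of 127 SNORA entries (median 0.12) and 0 of 188 SNORD entries (median 0.07) were called. For TERC, the telomerase RNA, which also carries a CAB box, the log2 fold change was -0.10 (edgeR adjusted p = 0.908).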

How the data were processed

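Small RNA counts of 8 HEK293 libraries were analysed. The authors deposited whole-number counts per gene, not normalized, and a second table of normalized signal, used here only for 2 alternatives (the authors' scaling factors and limma). Per the submitters' processing notes, the build was hg38. Not given in the sources used here are the aligner, the annotation, and how reads that match several copies were counted. The members and gene lists were chosen with earlier results of these data known.

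The 2 entries that name no gene (scr, scr2) were left out. The whole table was fitted with edgeR 4.0.16 (quasi-likelihood, robust, R 4.3.3) after TMM scaling and filterByExpr with a minimum count of 10, and p-values were adjusted by Benjamini and Hochberg over 1761 entries, with a threshold of 0.05. The biological coefficient of variation was 19%. The snRNA totals were compared by exact permutation over 70 arrangements of 4 against 4 libraries (scipy 1.17.1). The edgeR fit was also run on simulated counts with known changes, drawn with the spread fitted to these data. Those changes were larger than most scaRNA values here, so the run says nothing about power for small changes. Depth was 4016295 to 10246336 counts a library. Alternatives were DESeq2 1.42.0, limma 3.58.1 (log2 of that normalized signal with a pseudocount of 1), other scalings and filters, and leaving out each library. Genes are given in full where they had 1 of the 8 highest levels per length, 1 of the 10 lowest p-values, or counts nearly equal to another entry. Sequences are from GENCODE 29, and the microRNA and gene lengths from RefSeq (GRCh38.p14).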

Additional observations from a re-analysis of the deposited data

Results flagged for a closer look

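In 58 groups of 4 libraries (29 measures, each in tDR and scramble libraries), the highest or lowest library stood far from the others in 2, and chance gives about 1 in 20. SCARNA18 was low in tDR library 2, at 5.46 CPM, where the other tDR libraries had 10.0 to 10.8 CPM. SCARNA27 was high in tDR library 1, at 6.41 CPM, where the other tDR libraries had 4.73 to 4.99 CPM. No cause was tested for either.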

How the results depend on the processing

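Over 18 alternative fits, no scaRNA was called in 14, and 1, SCARNA27, was called in the others. Among the 14 is the fit with a mean count of at least 50, which tested 9 scaRNAs and could not call SCARNA27, as it fell below that count. SCARNA27 was the 1 call with TMM on microRNA entries alone (log2 fold change 1.21, adjusted p = 0.0098, where the median of all entries was 0.36), with limma on log2 of normalized signal plus 1 (0.92, adjusted p = 0.0249) and with the authors' factors (0.89, adjusted p = 0.0451). Leaving out each library gave 0 to 1 calls, the 1 being without scramble library 4 (1.06, adjusted p = 0.0428). Over all alternatives that tested SCARNA27, its edgeR, DESeq2 or limma adjusted p ran from 0.0098 to 0.194. Leaving out each library gave 0.72 to 1.06 for SCARNA27 and 0.74 to 1.47 for SCARNA8. Of 417 values of single scaRNAs, 54 changed sign, in 14 genes whose log2 fold change in the edgeR fit lay within 1 SE of 0. None of the 54 was called, and the largest was 0.36. The cause of these differences was not tested. No other result changed its side of the adjusted p threshold, and no called result changed direction. Groups that did not overlap came to overlap for the U1 total and SCARNA27 with total counts. The same held for the scaRNA to U1 ratio without SCARNA16. With each library left out, the uncalled log2 ratio crossed 0 for the U4 total (-0.13 to 0.10), the scaRNA to U5 ratio (-0.11 to 0.02) and the scaRNA median less that of all entries (-0.03 to 0.07).

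Over all entries, 118 were called in the edgeR fit (94 higher and 24 lower). DESeq2 called 194, limma 185, the fit without scramble library 2 65 and that without scramble library 3 70. Scaling by total counts (median of all entries -0.13) moved the split to 54 higher and 39 lower, TMM on microRNA entries to 157 and 1, and a mean count of at least 50 to 77 and 46. The U1 total's log2 ratio was 0.51, 0.41 to 0.55 with each library left out, and 0.35 when scaled by total counts, where its groups overlapped (exact permutation p = 0.0571). The U2 total was -0.20 with that scaling, with the same p and adjusted p (0.114), and U4 and U5 were -0.14 and -0.03. The groups of SCARNA27 overlapped there too, and those of SCARNA23, SCARNA26A and SCARNA26B did not. Same-numbered libraries did not deviate together (correlations of -0.345, -0.183, -0.26 and -0.12). These values cannot tell whether same-numbered libraries were made together, and the labels do not say. With a replicate block 0 scaRNAs and 39 entries were called. The ranking kept 6 of its 8 highest without division by length. Depth limits the 4 scaRNAs below a mean of 10 counts, which were not tested.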
